A study of Mus musculus with 6 samples.

Results

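The genes described here are 9 neuronal and neuropeptide genes, read out in cultures labelled as mouse embryonic fibroblasts. They are Stmn2, Tac1, Adgrl3, Tubb3, Ncam1, Gap43, Map2, Nefl and Bdnf, 9 of the 46983 genes in the count files, each matched by symbol to a single Ensembl identifier. Stmn2, Tac1 and Adgrl3 were chosen by their measured counts, having been seen to be lost in the SphK2 null libraries, so their difference between the groups is given as a description, with no test. The other 6 were listed by name as genes of neurons. RNA was sequenced from 3 libraries labelled SphK2 null and 3 labelled wild type. All 6 came from C57BL/6 embryos aged 14 days, and the cells were kept in DMEM with 10% FBS to passage 16. The labels name no treatment and do not say how the null allele was made, whether each line was a clone, or whether replicates were grown apart. P-values therefore reflect variation among these libraries alone, some of which may be technical.

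Neurons are built around long processes filled with microtubules and neurofilaments, and they release neuropeptides that are cut from larger precursors in dense-core granules. Outside the nervous system, many neuronal genes are held silent by the repressor REST, which recruits the CoREST and SIN3 complexes. Fibroblasts nevertheless transcribe some of these genes, among them the neurotrophin gene Bdnf and the adhesion molecule gene Ncam1.

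The null-labelled libraries held 16804841 to 19148434 counts in genes and the wild-type-labelled ones 15598566 to 23681718. Sphk2, the gene named in the label, went against it. It averaged 50 ± 1.35 CPM (counts scaled to library size with TMM factors) in null-labelled and 27.3 ± 0.907 CPM in wild-type-labelled libraries (SD, n = 3 each). Gene counts summed over all exons cannot show which exons the null allele is missing, so every direction below is between labels. All 11 fibroblast markers examined were lower in the null-labelled libraries, with a summed level of 3361 to 3396 CPM there against 14753 to 15229 CPM in the wild-type-labelled ones. Thy1, a fibroblast surface antigen, had no count in the null-labelled libraries and 256 counts in the wild-type-labelled ones. Collagen, Col1a1, averaged 1.68 CPM in null-labelled and 623 CPM in wild-type-labelled libraries, while the fibroblast filament Vim averaged 3211 and 5622 CPM. Of the 11 markers, 7 were over 32-fold lower in the null-labelled cultures. Of all 15199 genes tested, 41.1% were lower and 6.15% over 32-fold lower. The part of this in the values of the 9 genes was not tested. In such bulk samples, fewer cells of a type and less RNA per cell cannot be told apart.

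The 3 genes picked for their loss were expressed in all wild-type-labelled libraries. Stmn2 encodes stathmin 2, which binds tubulin in growing axons. It had 0, 4 and 7 counts in the null-labelled libraries, against 1002, 634 and 821 in the wild-type-labelled ones. The groups were far apart, and null-labelled replicate 1 was the library without a read. In CPM this was 0.202 ± 0.189 in null-labelled and 42.6 ± 0.838 in wild-type-labelled libraries (SD, n = 3 each), a ratio of 215-fold lower with an exact binomial 95% counting interval of 120 to 431.

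Tac1 encodes the precursor of the tachykinin peptides substance P and neurokinin A. It had no count in any null-labelled library, against 421, 263 and 317 counts in the wild-type-labelled ones. That places it at least 321-fold lower, taking the limit of 3 counts over the 3 null-labelled libraries that a count of 0 allows. Adgrl3 encodes latrophilin 3, an adhesion receptor that binds teneurins and FLRT proteins across synapses. It too had no count in any null-labelled library, against 594, 389 and 487 counts in the wild-type-labelled ones, which is at least 471-fold lower. The wild-type-labelled level of Adgrl3 varied little, at 25.5 ± 0.0289 CPM (SD, n = 3), and that of Tac1 was 17.3 ± 0.76 CPM (SD, n = 3). A null-labelled count of 0 was found for 173 (1.29%) of the 13402 genes that averaged 1 CPM or more in the other group.

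**Figure D1:**
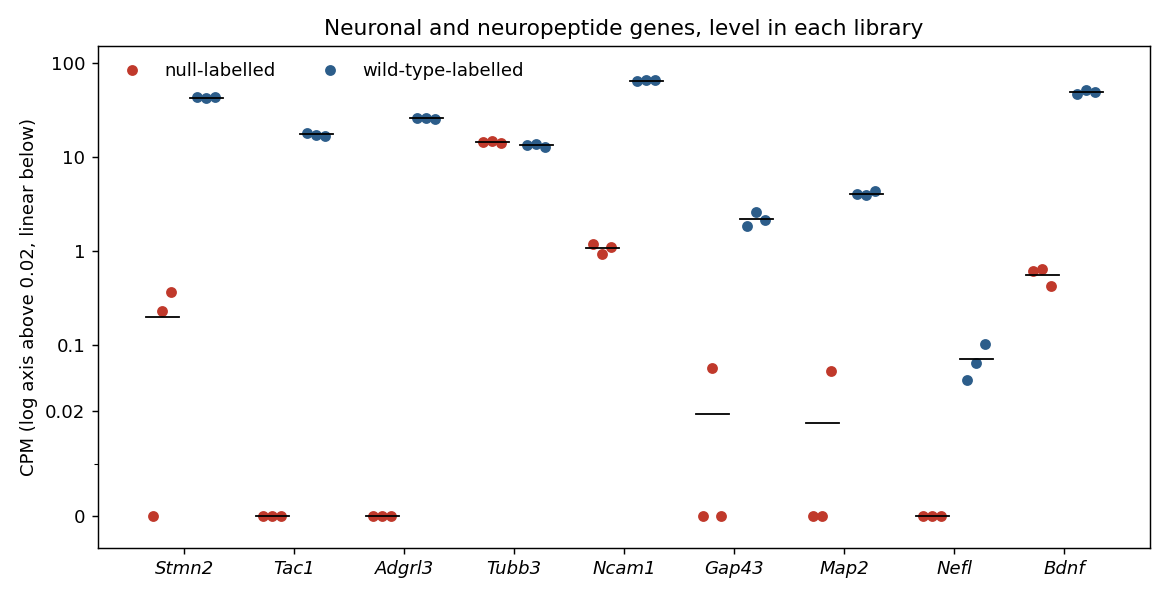
CPM of the 9 genes in each of the 3 null-labelled and 3 wild-type-labelled libraries. Points are libraries, black lines are group means, and the axis is logarithmic above 0.02 CPM and linear below. Tubb3 stands between 12.6 and 14.6 CPM in all 6 libraries, while the null-labelled points of the other 8 genes lie below their wild-type-labelled ones.

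Of the 6 genes listed by name, 4 fell in the null-labelled libraries, Tubb3 did not pass the test, and Nefl was too low to be tested. Of all 15199 genes tested, 79.2% passed an adjusted p of 0.05, with 41.1% below and 38.1% above the wild-type-labelled level, so a fall alone was common. All 4 falls were larger than 32-fold, a size reached by 6.15% of the genes tested. The groups did not overlap, with the null-labelled one lower, in 8 of the 9 genes and in 41.4% of all genes tested. Groups that did not overlap in either direction were found for 79.9%. The 8 include Stmn2, Tac1 and Adgrl3, whose loss chose them, and Nefl, which is not among the genes tested. The 9 genes were chosen with this comparison known, and nothing more is read from these counts.

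Ncam1 encodes the neural cell adhesion molecule NCAM, which holds neurons, muscle cells and some mesenchymal cells to each other. It had 23, 16 and 21 counts in the null-labelled libraries, against 1468, 984 and 1234 in the wild-type-labelled ones. The fall was deep but not complete, with reads left in every null-labelled library. The log2 fold change was -5.88 ± 0.096 (SE), and the edgeR quasi-likelihood adjusted p was 0 at the precision of the computation.

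Bdnf encodes brain-derived neurotrophic factor, a secreted ligand of the receptor TrkB. It had 12, 11 and 8 counts in the null-labelled libraries, against 1089, 784 and 924 in the wild-type-labelled ones. It too kept a trace in each null-labelled library, at 0.561 ± 0.118 CPM, while the wild-type-labelled ones averaged 48.9 ± 2.34 CPM (SD, n = 3 each). The log2 fold change was -6.43 ± 0.12 (SE), again with an edgeR adjusted p of 0 at that precision.

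Map2 encodes a microtubule-associated protein of dendrites. It had 0, 0 and 1 counts in the null-labelled libraries, against 93, 60 and 82 in the wild-type-labelled ones, a ratio of 226-fold lower with a 95% counting interval of 40.2 to 8967. Gap43 encodes a growth cone membrane protein, and it had 0, 1 and 0 counts in the null-labelled libraries, against 43, 40 and 41 in the wild-type-labelled ones. Both genes were thus close to empty in the null-labelled cultures. In the other group Gap43 had fewer counts than Map2, but per kilobase of exon it was higher, at 1.45 against 0.248 CPM. The Gap43 ratio was 119-fold lower with a wide counting interval of 21 to 4749. The edgeR adjusted p was 1.07e-59 for Map2 and 1.86e-32 for Gap43.

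Tubb3, the beta-tubulin isotype that is widely used as a stain for neurons, was the exception. It had 282, 250 and 265 counts in the null-labelled libraries, against 310, 210 and 241 in the wild-type-labelled ones. After scaling, this was 14.4 ± 0.243 CPM in null-labelled and 13.2 ± 0.586 CPM in wild-type-labelled libraries (SD, n = 3 each). The null-labelled values were slightly higher and did not overlap the others, but the log2 fold change of 0.12 ± 0.081 (SE) missed the threshold (edgeR adjusted p = 0.154). The ratio of the groups was 1.09, with a 95% counting interval of 0.984 to 1.2, so a difference of the size seen in the other genes lies far outside it.

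Nefl encodes the light neurofilament subunit, which forms the core of the axonal filament network. It had no count in the null-labelled libraries and 1, 1 and 2 counts in the wild-type-labelled ones. Each library lies below 3 counts, and the wild-type-labelled total of 4 is just above 3, the limit over a group. Nefl was therefore at least 1.28-fold lower, a bound that says little at this depth. Exons of Nefm cover 32.8% of its 3380 exonic bases, and reads there were left uncounted.

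Set side by side per kilobase of exon, 5 of the genes reached similar levels in the wild-type-labelled cultures. Ncam1 was at 8.02 ± 0.103, Bdnf at 7.86 ± 0.376, Stmn2 at 7.6 ± 0.15, Tubb3 at 7.09 ± 0.314 and Tac1 at 5.1 ± 0.224 CPM per kilobase (SD, n = 3 each). The ranges of Ncam1 and Bdnf overlapped, as did those of Bdnf and Stmn2, so these neighbours in the order did not differ beyond their spread. Gap43 (1.45 ± 0.257) and Adgrl3 (1.44 ± 0.00163) also overlapped, lower down. Map2 followed at 0.248 ± 0.0115 and Nefl was last at 0.021 ± 0.00923. In the null-labelled cultures only Tubb3 kept such a level, at 7.7 ± 0.13 CPM per kilobase (SD, n = 3), and the next was Ncam1 at 0.135 ± 0.0159. The exon length is the union of all annotated exons, and a gene that uses short transcripts is understated by it.

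**Figure D2:**
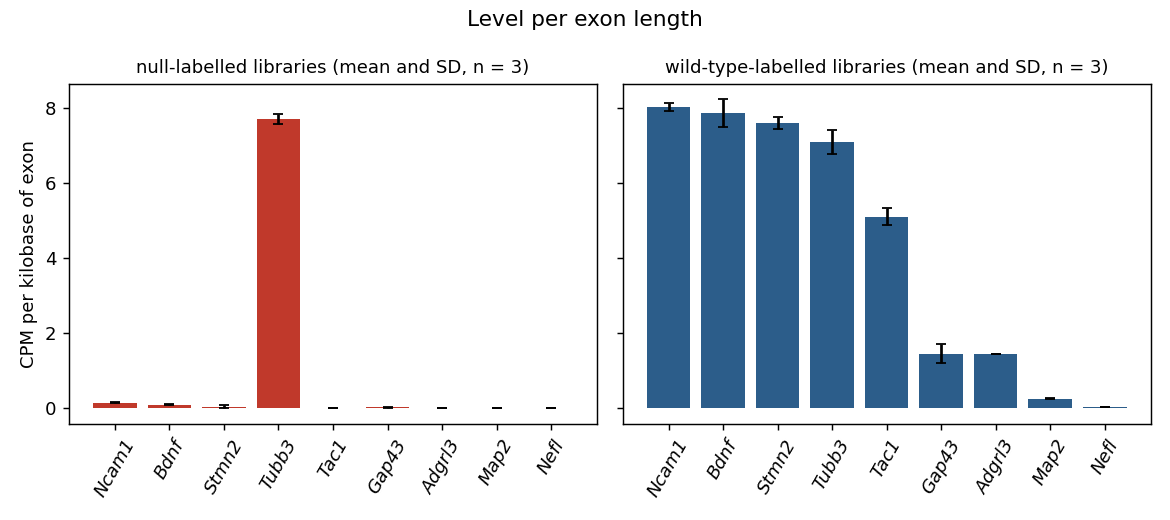
CPM per kilobase of exon of the 9 genes, with null-labelled libraries on the left and wild-type-labelled ones on the right. Bars are means and whiskers SD over 3 libraries. Tubb3 is the single tall bar on the left, at 7.7, and is the fourth of 5 bars above 5 on the right, at 7.09.

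In the files' coordinates (GRCm38, mm10 names) the 9 genes lie on 9 different chromosomes, so no pair of them shares a locus. Stmn2 lies at chr3:8509360-8561606, Tac1 at chr6:7554879-7565834 and Adgrl3 at chr5:81020138-81825133, all on the plus strand. Tubb3 lies at chr8:123411424-123422015, Nefl at chr14:68083863-68089095, Map2 at chr1:66175273-66442583 and Bdnf at chr2:109674700-109727007, also on the plus strand. Ncam1, at chr9:49502136-49798925, and Gap43, at chr16:42248442-42340651, are on the minus strand. Overlap with exons of other genes was 8.91% of the exonic bases in Adgrl3, 3.21% in Ncam1 and 0.754% in Map2, and 0 in Stmn2, Tac1, Tubb3, Gap43 and Bdnf. The gene over Adgrl3, the antisense Gm16054, had no null-labelled count either, and 4, 2 and 3 counts in the wild-type-labelled libraries. Counting used no strand, and reads over exons of both genes are left out of either count by default.

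The tested genes nearest to the 9 on the chromosome were mostly not lower. Genes too low to test, such as Nefm over Nefl, were passed over, and the genes taken before Gap43 lie 3500 to 3560 kb away. The 3 nearest tested genes on each side of each gene, a set chosen after the values of the 9 were known, made 54 genes. Of these, 15 (27.8%) fell and 28 rose in null-labelled cultures, against 41.1% falling among all genes tested. Their median log2 fold change was 0.12, and 1 of the 54, Igfbp7 beside Adgrl3, fell by more than 32-fold (log2 fold change -8.33). That gene lies 3610 kb from Adgrl3, with the predicted gene Gm2199 (-0.11) between them. Asns, which encodes asparagine synthetase and lies 109 kb past Tac1, was higher by a log2 fold change of 0.81 ± 0.025 (SE). Lin7c, 164 kb past Bdnf, was at 0.32 ± 0.027 (SE). All 6 neighbours of Tubb3 were higher, by log2 fold changes of 0.51 to 1.30.

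**Figure D3:**
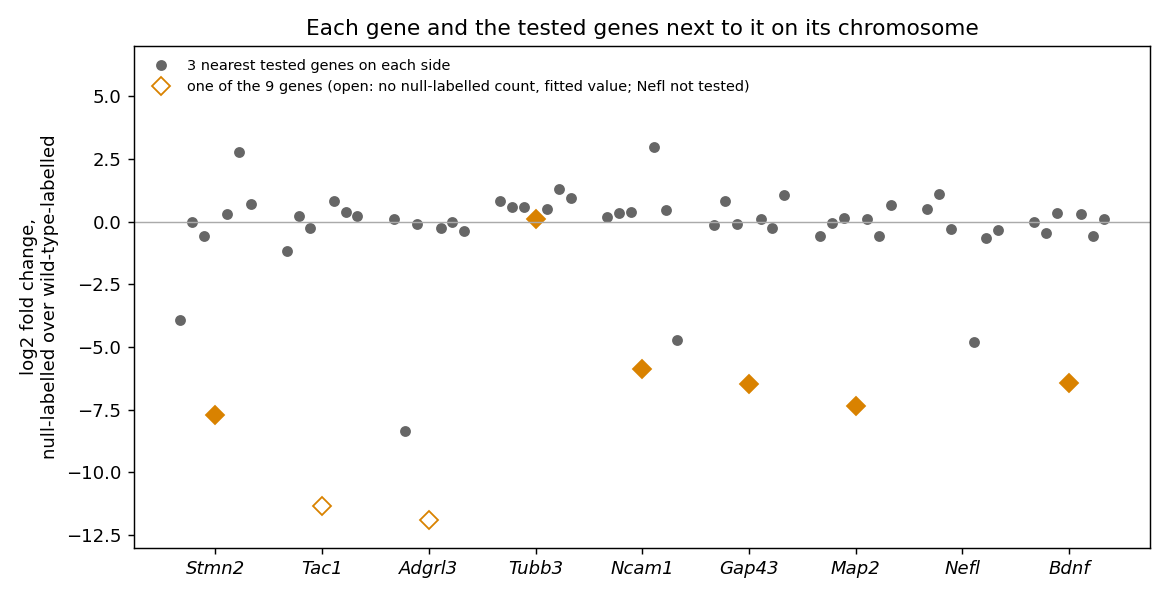
Log2 fold change, null-labelled over wild-type-labelled, of each of the 9 genes (diamonds, open where no null-labelled count was seen) and of the 3 nearest tested genes on each side (grey points, in chromosomal order). Most grey points lie near 0 (median 0.12), while 7 of the 8 diamonds lie below -5. Nefl has no diamond because it was not tested.

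RefSeq promoter windows of 300 bases (GRCm38.p6, 250 bases before to 50 after a start) were matched for Tac1, Adgrl3, Tubb3, Map2 and Bdnf. Stmn2, Ncam1, Gap43 and Nefl had no entry. A window each of Tac1, Adgrl3 and Bdnf is given for genes that were low in the null-labelled cultures, and that of Tubb3 for the gene that was not. Capitals mark matches, on either strand, to TGACG (the core of a cAMP response element, CGTCA on the other strand) and to the E-box CACGTG. A match is a description of these letters and not a measured site. Of 3 Adgrl3 and 7 Bdnf windows 1 each is printed, and the Bdnf one is the only one of its 7 with a TGACG match. Where an annotated untranslated region begins inside a window, bases before it are shown, and for Tac1 also a stretch of 30 bases with an E-box. That stretch and those of Adgrl3 and Bdnf lie inside the spans given above for these genes, so they are not upstream of every annotated transcript.
Tac1, chr6:7554811-7554878, plus strand: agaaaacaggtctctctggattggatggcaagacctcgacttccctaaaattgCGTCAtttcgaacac
Tac1, chr6:7554994-7555023, plus strand: gagtgtCACGTGgctctacaggctCGTCAc
Adgrl3, chr5:81020321-81020570, plus strand: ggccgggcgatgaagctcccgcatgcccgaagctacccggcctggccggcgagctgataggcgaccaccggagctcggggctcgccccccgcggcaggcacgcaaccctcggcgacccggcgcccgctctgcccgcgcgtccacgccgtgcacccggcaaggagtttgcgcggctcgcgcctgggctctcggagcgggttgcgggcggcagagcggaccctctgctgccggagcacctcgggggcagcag
Bdnf, chr2:109692186-109692435, plus strand: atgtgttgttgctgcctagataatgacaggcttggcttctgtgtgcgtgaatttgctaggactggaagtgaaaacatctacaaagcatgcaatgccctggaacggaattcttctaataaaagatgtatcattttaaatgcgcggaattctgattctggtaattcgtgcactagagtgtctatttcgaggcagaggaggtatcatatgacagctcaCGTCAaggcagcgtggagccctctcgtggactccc
Tubb3, chr8:123411303-123411423, plus strand: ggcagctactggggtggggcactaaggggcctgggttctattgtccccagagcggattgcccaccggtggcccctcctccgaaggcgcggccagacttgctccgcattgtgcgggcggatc

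These windows differed in base composition, and those of Tac1, Adgrl3, Tubb3 and Map2, but not of Bdnf, were rich in CpG by the cut given below. The Tac1 window had 22 CpG dinucleotides, the first Adgrl3 window 40, the Tubb3 window 26 and the Map2 window 37, while the 7 Bdnf windows had 2 to 13. The median over all 32851 windows was 7. Over 50% GC with a CpG ratio above 0.6 (observed over that from base content) was met by 6 of the 13 windows of these genes, namely all those of Tac1, Adgrl3, Tubb3 and Map2, and by 33.3% of all windows. TGACG or its reverse complement was in the Tac1 window, with 2 matches, and in 1 Bdnf window, and in 20.8% of all windows. CACGTG was in the Tac1 window alone and in 7.15% of all windows. TATAAA was in the second Adgrl3 window, with its first base 28 bases before the start, and in 13.6% of all windows. GGACAG, the right part of the REST motif, searched on both strands, was in the Tubb3 window, the Map2 window and 1 Bdnf window, and in 22.2% of all windows. Its left part and the whole REST motif, found in 0.371% and 0.0122% of all windows, and the whole cAMP response element, found in 1.79%, had no match in the 13 windows. That says only that those letters are not in them.

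The relatives of the lost genes did not follow them as families. Of the stathmins, Stmn1, the form of dividing cells, averaged 12.3 ± 0.518 CPM in null-labelled and 10.4 ± 0.962 CPM in wild-type-labelled libraries (SD, n = 3 each), with an edgeR adjusted p = 0.0137. That call was lost without null-labelled replicate 3 (adjusted p = 0.0515) and without wild-type-labelled replicate 2 (adjusted p = 0.113), as it was with DESeq2 (adjusted p = 0.0814) and at a threshold of 0.01. Stmn4 was higher, by a log2 fold change of 1.74 ± 0.4 (SE), and Stmn3 had 4 null-labelled counts and none in the wild-type-labelled libraries. Of the latrophilins, Adgrl2 was lost beside Adgrl3, with 0.572 ± 0.17 CPM in null-labelled and 155 ± 2.58 CPM in wild-type-labelled libraries, while Adgrl1 rose to 85 ± 3.88 CPM in null-labelled libraries, against 49 ± 1.26 CPM in wild-type-labelled ones (SD, n = 3 each). Adgrl4, a latrophilin relative of endothelium, had 0 and 4 counts in the null-labelled and wild-type-labelled groups.

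The tachykinin system was split in the same manner. The receptor Tacr2, which prefers neurokinin A, rose to 16.6 ± 0.748 CPM in null-labelled libraries, against 1.07 ± 0.143 CPM in wild-type-labelled ones (SD, n = 3 each), where its peptide gene Tac1 was found. The substance P receptor gene Tacr1 had 0 null-labelled counts and 1 wild-type-labelled count, and Tacr3 had 1 and 4, so neither was detectable above a few reads. Mme, which encodes neprilysin, a membrane peptidase that degrades substance P, had 2 counts in the null-labelled and 1558 in the wild-type-labelled libraries, a ratio of 749-fold lower with a 95% counting interval of 207 to 6193. The peptidases Ace (log2 fold change -3.40 ± 0.29 SE) and Ece1 (-0.43 ± 0.037 SE) were lower too.

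**Figure D4:**
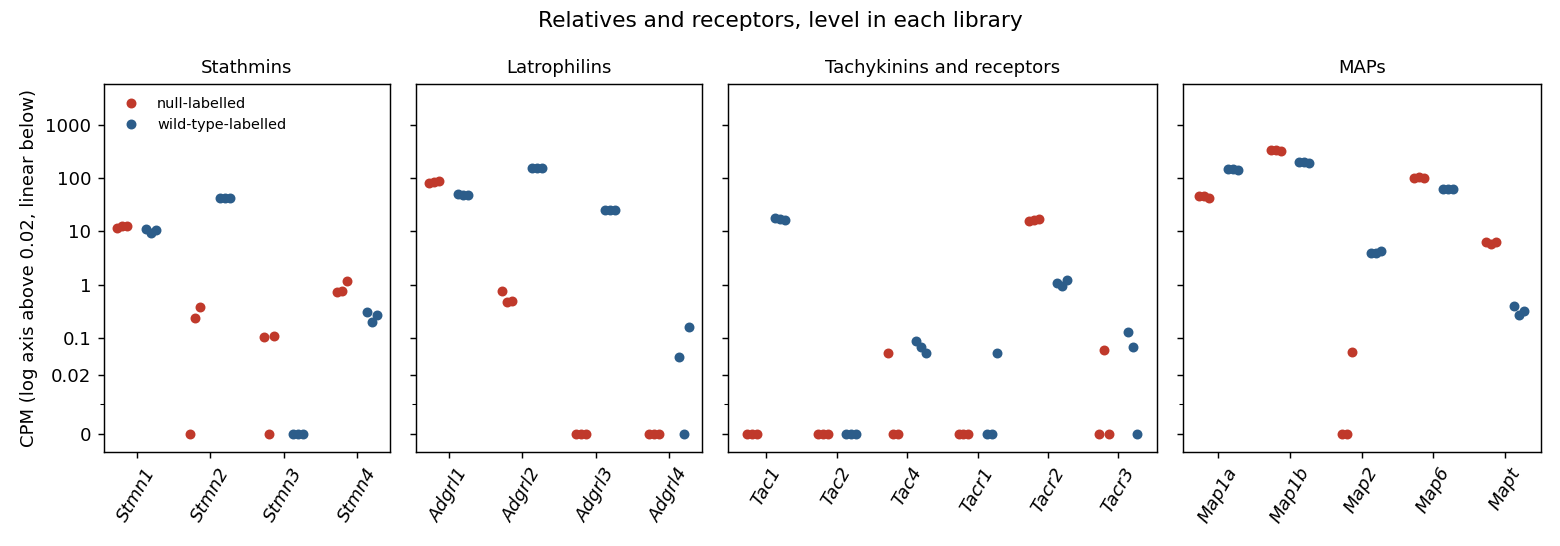
CPM of stathmins, latrophilins, tachykinin precursors with their receptors, and microtubule-associated proteins (MAPs) in each library, with null-labelled points left of wild-type-labelled ones. The axis is logarithmic above 0.02 CPM and linear below. Adgrl1, Tacr2 and Mapt stand higher in null-labelled libraries where Adgrl3, Tac1 and Map2 are at or near 0.

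Over 11 lists, leaving out the 9 genes themselves, 80 of 154 genes passed the filter on low counts. The lists were of related neuronal genes, except that of REST and its corepressors. That list gave 16 of the 80, with a median log2 fold change of -0.10 and 0 over 32-fold lower. Among the 80 genes, 53 (66.2%) fell, 24 (30%) rose and 3 missed the threshold, where 41.1% of all genes tested fell and 38.1% rose. The median log2 fold change was -0.67, also with the 3 genes without a null-labelled count at their bound, against -0.02 over all genes tested. A gene could pass the filter through 1 group alone, and 20 (25%) of the 80 were over 32-fold lower, against 6.15% of all genes tested. The lists were drawn up with earlier results of these data known.

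The microtubule list was split evenly, with 6 genes lower and 6 higher of 12 tested, against 41.1% and 38.1% of all genes tested. Dclk1, a doublecortin-like kinase that binds microtubules, averaged 0.345 ± 0.0722 CPM in null-labelled and 46.7 ± 2.18 CPM in wild-type-labelled libraries (SD, n = 3 each). The kinesin motor Kif5c (log2 fold change -3.77 ± 0.27 SE) and the alpha-tubulin Tuba1a (-2.44 ± 0.039 SE) were lower as well. Mapt, which encodes the axonal protein tau, went the other way from Map2, at 6.16 ± 0.236 CPM in null-labelled and 0.321 ± 0.0627 CPM in wild-type-labelled libraries (SD, n = 3 each). Among the neurofilament relatives of Nefl, only Prph, peripherin of peripheral neurons, could be tested. It averaged 7 ± 0.949 CPM in null-labelled and 1.17 ± 0.197 CPM in wild-type-labelled libraries (SD, n = 3 each), with an edgeR adjusted p = 4.41e-50.

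The growth cone genes were mostly low beside Gap43, with 8 lower and 2 higher of 10 tested and a median log2 fold change of -4.73. Basp1 and Marcks, which like Gap43 encode abundant membrane proteins of the growth cone, were at 0.31 ± 0.0913 and 0.18 ± 0.0229 CPM in null-labelled libraries, and at 115 ± 2 and 85.6 ± 2.1 CPM in wild-type-labelled ones (SD, n = 3 each). Dpysl3, a collapsin response mediator, was 499-fold lower (95% counting interval 332 to 788). Uchl1, a ubiquitin hydrolase abundant in neurons, had 2 null-labelled and 853 wild-type-labelled counts. The 2 genes that were higher, named after their values were seen, were Crmp1 (log2 fold change 4.63), another collapsin response mediator, and Gprin1 (5.76), a G protein partner in neurite outgrowth.

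Few of the neuropeptide precursors were expressed in either group. Of 20 besides Tac1, 4 could be tested, of which 3 were lower, against 41.1% of all genes tested. Penk, the enkephalin precursor, had 2 null-labelled and 853 wild-type-labelled counts, and Calcb, a precursor of calcitonin gene-related peptide, had 0 and 119, at least 38.2-fold lower. Nmb, neuromedin B, was lower by a log2 fold change of -2.23 ± 0.29 (SE). Vgf, a granin-like precursor, rose to 155 ± 8.26 CPM in null-labelled libraries, against 18.6 ± 0.85 CPM in wild-type-labelled ones (SD, n = 3 each). The list's median was -5.26, and -3.74 with Calcb at its bound, against -0.02 over all genes tested. Penk and Calcb passed the filter through the wild-type-labelled group alone, so the filter helped set this median. Of the enzymes that mature such precursors, the convertase genes Pcsk1 and Pcsk2 were all but absent, Pcsk1 with 0 null-labelled and 2 wild-type-labelled counts and Pcsk2 with none in any library. Enzymes of later steps were expressed in both groups. Cpe, carboxypeptidase E, averaged 278 ± 2.17 CPM in null-labelled and 323 ± 3.3 CPM in wild-type-labelled libraries, and the amidating enzyme Pam 36.3 ± 0.86 and 182 ± 5.39 CPM (SD, n = 3 each). With the chaperone Scg5 (log2 fold change -3.88 ± 0.35 SE) they were the 3 tested of 10 granule genes. All 3 were lower, against 41.1% of all genes tested. The granins Chga and Chgb had 2 and 5 null-labelled counts and 1 and 5 wild-type-labelled ones.

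The partners of the latrophilins were lower in 6 of 10 tested genes and higher in 3, a count that includes Adgrl1 and Adgrl2. Among all genes tested, 41.1% were lower and 38.1% higher. Tenm3, a teneurin, averaged 0.561 ± 0.223 CPM in null-labelled and 102 ± 2.14 CPM in wild-type-labelled libraries (SD, n = 3 each). The netrin receptors divided, with Unc5c 105-fold lower (95% counting interval 40.6 to 386) and Unc5a 77.7-fold higher (43.2 to 156). The rest of the tested list was added after its values were seen. Unc5b, at 175 ± 2.84 CPM in null-labelled and 180 ± 2.83 CPM in wild-type-labelled libraries, missed the threshold (edgeR adjusted p = 0.188). Tenm4 was higher (log2 fold change 0.94 ± 0.063 SE). Flrt1 (-5.09 ± 0.46 SE), Flrt2 (-3.46 ± 0.051 SE) and Flrt3 (-2.71 ± 0.13 SE) were lower.

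The adhesion molecules related to NCAM divided likewise, 4 lower and 2 higher of 6 tested, with 18 others too low to test. Among all genes tested, 41.1% were lower and 38.1% higher. L1cam, an axonal adhesion molecule of the immunoglobulin family, rose to 26.5 ± 1.72 CPM in null-labelled libraries, against 0.444 ± 0.2 CPM in wild-type-labelled ones (SD, n = 3 each). Nrxn2, a presynaptic neurexin, was 23.2-fold higher (95% counting interval 12.8 to 47.2). St8sia4, which puts polysialic acid on NCAM, had 0 null-labelled and 67 wild-type-labelled counts, at least 21.5-fold lower, and Negr1 had 2 and 242. The list's median was -1.91.

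Of the neurotrophic factors and receptors other than Bdnf, 7 were lower and 2 higher of 9 tested, with a median of -2.72. Ntrk2, which encodes the receptor of BDNF, had 10 null-labelled and 2 wild-type-labelled counts, below the filter. Ngfr, the low-affinity neurotrophin receptor, was 30.3-fold higher (95% counting interval 14.4 to 76.3), at 3.69 ± 0.545 CPM in null-labelled and 0.117 ± 0.0469 CPM in wild-type-labelled libraries (SD, n = 3 each). Sorcs2, a sortilin relative that binds the BDNF precursor, was lower (log2 fold change -3.75 ± 0.12 SE). So were Gfra2 (-6.57 ± 0.21 SE) and Gfra1 (-4.40 ± 0.24 SE), coreceptors of the GDNF family.

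**Figure D5:**
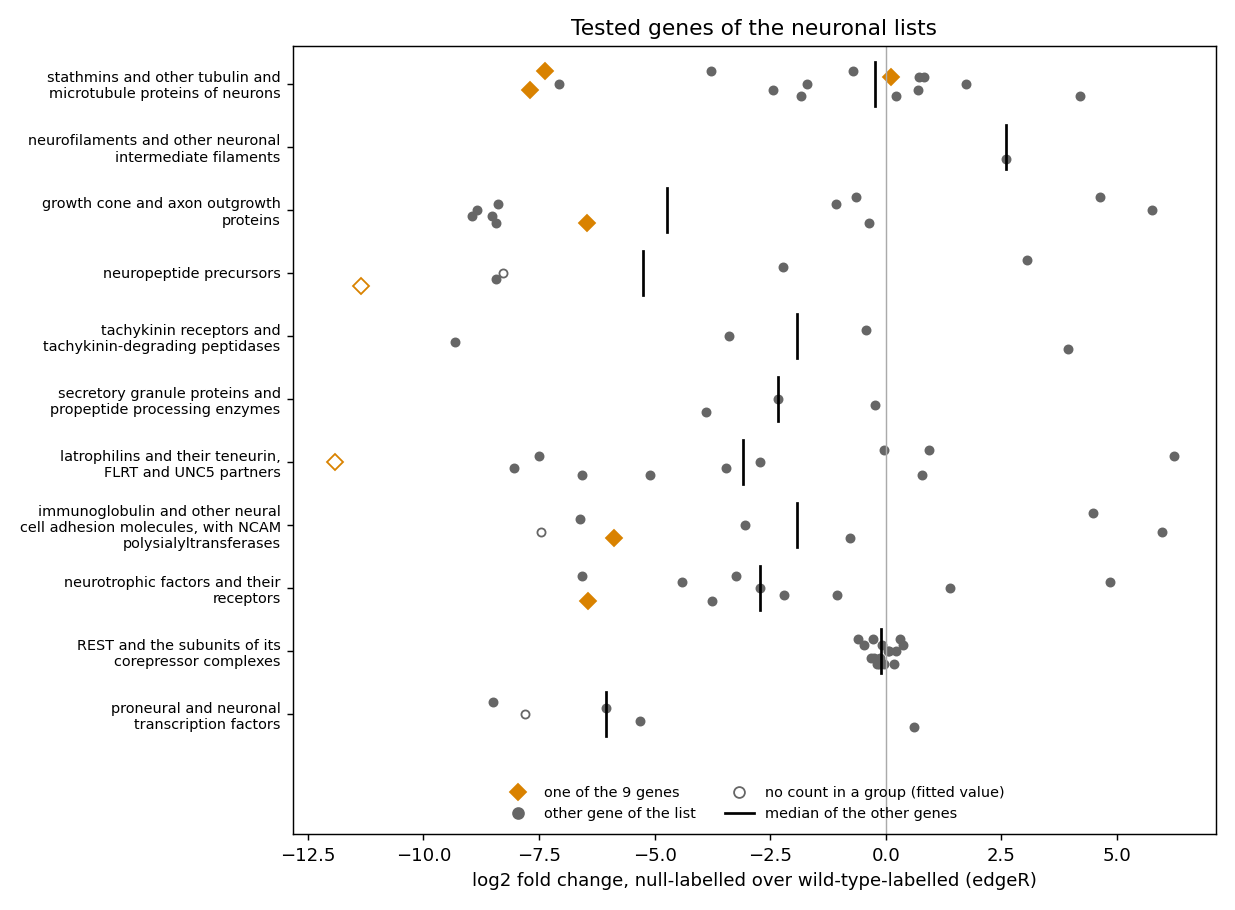
Log2 fold change, null-labelled over wild-type-labelled, of the tested genes of 11 lists, those of neuronal genes and that of REST and its complexes. Diamonds are the 9 genes described here where tested, grey points the other genes of each list, open symbols genes without a count in a group, and black bars the median of the grey points. Members of most lists lie on both sides of 0, and those of REST and its complexes lie within 0.60 of it.

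REST and its corepressors were expressed in both groups, with small changes in both directions. Rest averaged 107 ± 2.36 CPM in null-labelled and 94.8 ± 2.33 CPM in wild-type-labelled libraries (SD, n = 3 each), a log2 fold change of 0.18 ± 0.035 (SE) with an edgeR adjusted p = 6.55e-07. Of the 16 genes, 9 fell, 5 rose and 2 missed the threshold, where 41.1% of all genes tested fell and 38.1% rose. The largest changes were in the phosphatase Ctdsp2 (-0.60 ± 0.028 SE) and in Rcor3 (-0.47 ± 0.055 SE), a CoREST protein, with Sin3b (0.38 ± 0.033 SE) and Phf21a (0.32 ± 0.04 SE) higher. Of the proneural and neuronal transcription factors, 4 were lower and 1 higher of 5 tested, and 11 of the 16 were too low to test. Ebf3, an early B-cell factor family member, averaged 0.0892 ± 0.0267 CPM in null-labelled and 34.6 ± 1.14 CPM in wild-type-labelled libraries (SD, n = 3 each). Insm1 had 0 null-labelled and 85 wild-type-labelled counts, Ebf1 had 2 and 161, and Isl1, a LIM homeobox factor of motor and sensory neurons, had 4 and 181. The proneural genes Neurog1 and Neurod1 had no count in any library. The median was -6.04, and -5.32 with Insm1 at its bound, against -0.02 over all genes tested. Ebf3, Insm1, Ebf1 and Isl1 passed the filter through the wild-type-labelled group alone, so the filter helped set this median.

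Markers of neurons ranged from no count to levels like those of the 9 genes, and did not move together. Over 15 markers the summed level was 63.9 to 67.2 CPM in null-labelled and 49.3 to 51.4 CPM in wild-type-labelled libraries. Of 7 tested, 3 fell, 2 rose and 2 missed the threshold. Snap25, a synaptic vesicle fusion protein, had 1 null-labelled and 138 wild-type-labelled counts, Elavl4 had 1 and 110, and Gad2 had 1 and 89. Syn1, synapsin, averaged 30.9 ± 0.54 CPM in null-labelled and 16.5 ± 0.423 CPM in wild-type-labelled libraries (SD, n = 3 each), a log2 fold change of 0.91 ± 0.064 (SE). Celf4, an RNA-binding protein of neurons, averaged 23.6 ± 0.46 CPM in null-labelled and 21.8 ± 1.64 CPM in wild-type-labelled libraries (SD, n = 3 each) and missed the threshold. Rbfox3, which encodes the neuronal nuclear antigen NeuN, had 0 null-labelled and 2 wild-type-labelled counts.

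Other lineages that transcribe some of the 9 genes were checked in the same way. Of 10 glial and Schwann cell markers, 2 were higher and none lower, with 18.4 to 18.9 CPM in null-labelled and 3.87 to 4.79 CPM in wild-type-labelled libraries, and Sox10 had 0 null-labelled and 2 wild-type-labelled counts. Of 10 muscle markers, 2 fell and 1 missed the threshold of 3 tested, with 6.35 to 7.53 CPM in null-labelled and 6.8 to 8.85 CPM in wild-type-labelled libraries, and Myod1 and Myog had no count in any library. Of 10 neural progenitor markers, 3 were higher and 1 lower of 4 tested, with 482 to 509 CPM in null-labelled and 416 to 425 CPM in wild-type-labelled libraries, and the lower one was Sox2, with 5 null-labelled and 6454 wild-type-labelled counts. Of 13 epithelial markers, 1 rose, 1 fell and 1 missed the threshold of 3 tested, with 385 to 411 CPM in null-labelled and 108 to 111 CPM in wild-type-labelled libraries, most of it from Krt8. The part of these shifts in the values of the 9 genes was not tested.

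For each tested gene of the 9, the 2 genes with the most similar profile were found by the distance between log2 CPM values over the 6 libraries, each gene centred on its mean, among named genes whose log2 CPM averaged 1 or more. Tac1 was closest to Sfmbt2 (distance 0.101) and Rgs17 (0.128), which also had no null-labelled count. Adgrl3 was closest to Col25a1 (0.0955) and Zfp521 (0.115), and Stmn2 to Hoxa7 (0.49) and Mfap3l (0.82), both with 7 null-labelled counts. Bdnf was closest to Lpcat2 (0.122) and Map9 (0.122), Ncam1 to Tmem132a (0.149) and Vopp1 (0.23), Map2 to Wincr1 (0.181) and Ccl9 (0.221), and Gap43 to Olfml2b (0.31) and Usp18 (0.406). Tubb3 was closest to Ino80e (0.0274) and Cenpl (0.0362), with log2 fold changes of 0.10 ± 0.043 and 0.14 ± 0.051 (SE). These distances mostly measure the difference between the groups, since the libraries of a group were alike. The log2 CPM used a prior count of 2, which raises values near 0, so genes with unlike ratios can lie close. Bdnf was 86.8-fold lower and its nearest gene Lpcat2 286-fold, while Gap43 was 119-fold lower and Olfml2b 19.4-fold.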

How the data were processed

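RNA was sequenced as single reads of 51 bp, per the labels' protocols. The authors deposited raw counts per Ensembl gene for each of 6 libraries, by featureCounts 1.6.2, over exons by gene identifier, with an Ensembl 83 annotation of GRCm38, per the file headers. The headers set no strand, multimapping or overlap option. By default, reads over exons of several genes, and reads mapping to several places, are then left out. The submitters' processing notes name Subread 1.6.2, featureCounts 1.2.6, FastQC 0.11.2 and Trimmomatic 0.33. Symbols were matched for 98.9% of 46983 genes, and totals ran from 15598566 to 23681718.

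Genes were kept with filterByExpr (15199), scaled with TMM and tested by edgeR's quasi-likelihood method (edgeR 4.0.16 in R 4.3.3, robust option, groups as the sole term). The Benjamini-Hochberg adjustment ran over all genes tested, with a threshold of 0.05. The fit was also run on simulated counts in which few genes changed, and by modest folds. That run does not check changes as wide and as large as those here. A fold against a group at 0 used 3 counts over its 3 libraries. Intervals are exact binomial and cover counting error only. No pair of libraries of a group agreed within sampling noise (chi-square per degree of freedom 1.44 to 2.04). Named were the 9 genes, Sphk2, direct relatives, up to 4 genes per list with the largest change past the threshold and at least 1 CPM in a group, and the 2 nearest profiles. Some other genes of the lists were named after their values were seen. The genes and lists were chosen with earlier results of these data known. Alternatives were median-of-ratios size factors, DESeq2 1.42.0, other filters, a replicate block, a threshold of 0.01, leaving out each library, TPM, and promoter bases before the start.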

Additional observations from a re-analysis of the deposited data

How the results depend on the processing

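Of the 6 genes listed by name, 4 were lower and 0 higher under every alternative run: median-of-ratios size factors, DESeq2, no filter, a filter of over 1 CPM in 3 libraries, the replicate block, a threshold of 0.01 and leaving out each library. Tubb3 missed the threshold in all of them, with log2 fold changes of 0.08 to 0.14 and adjusted p from 0.132 to 0.387. Of the other genes of the lists, 52 to 64 were lower and 22 to 28 higher, the upper ends with no filter. The log2 fold changes of the 66 genes named by rule kept their direction in each alternative in which they were fitted. Calls were lost for Stmn1, and for Ino80e and Cenpl, named for profiles like that of Tubb3, and for no other of these 66 genes. With DESeq2 all 3 were lost (adjusted p = 0.0814, 0.105 and 0.0577). The order of the 9 genes per length was the same in TPM, which only rescales each library and so could hardly change it. Over the bases before the start, the counts of CpG-rich windows did not change. Neither did those of windows with the cAMP response core, the E-box or the TATA motif. The Tubb3 match to the right part of the REST motif lies after the start and is lost there.

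With the replicate number as a block, 5765 genes were higher and 6238 lower, against 5795 and 6245 without it, and no call of the 66 genes named by rule changed. Deviations from the group mean correlated by 0.0102, 0.0213 and 0.036 between libraries of the same number, too low to treat them as paired. Each library correlated best with its own number, a hint from the data and not from the design. Counts of 0 or 1 limit Nefl, Map2, Gap43, Tac1 and Adgrl3 in the null-labelled libraries. There a count of 3 is 0.154 to 0.175 CPM, and the sizes of their falls are bounds or wide intervals.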
